A study of Homo sapiens with 6 samples.

Results

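The 4 genes PNMA1, PNMA2, PNMA3 and PNMA5 of the paraneoplastic Ma antigen family were followed in RNA-seq of SK-MEL-28, a human melanoma cell line. They are 4 of the 60504 genes of the count table, and were selected by name because PNMA5 was nearly absent from the libraries labelled EV and abundant in those labelled HDAC8. Their difference between the labels is therefore given as a description, with no p-value, and nothing is read from a test of it. The study introduced HDAC8, a class I lysine deacetylase, to ask how a higher level of this enzyme reshapes expression. Cells carried either an empty vector (EV, 3 libraries, the control) or the plasmid expressing HDAC8 (3 libraries), and per the Methods both were transfected with a lipid reagent and then kept in hygromycin. The labels number 3 biological replicates in each group, but do not say that these came from separate transfections, so the spread between libraries may not include that between transfected populations.

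Library totals lay between 20850018 and 29822917 estimated counts. Levels are given as counts per 1000000 counts of the library (CPM), with library sizes scaled by the trimmed mean of M-values, and on that scale 3 counts in a library, taken as the smallest amount read as detected, were worth 0.102 to 0.148 CPM. The transcripts of HDAC8 did not separate the labels, with 357, 337 and 289 counts in EV and 417, 308 and 312 in HDAC8. The means were 14.5 ± 2.48 and 14.2 ± 0.882 CPM (SD, n = 3), the log2 fold change was -0.02 with a standard error of 0.13, and the adjusted p was 0.924 by edgeR. Each direction given here therefore rests on the labels of the libraries. The paper probed HDAC8 protein by immunoblot in cells given the empty vector or the HDAC8 construct, which these counts do not measure. The melanocyte lineage markers MLANA, PMEL, TYR, DCT, MITF and SOX10 were abundant in all 6 libraries, while TYRP1 lay below 2 CPM.

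PNMA proteins descend from the gag capsid protein of Ty3/Gypsy-type retrotransposons that lost their mobility and were kept as host genes. PNMA1 and PNMA2 encode the Ma1 and Ma2 antigens, to which patients with cancer-associated autoimmune encephalitis make antibodies, and the proteins are otherwise best known from neurons and testis. PNMA2 can assemble into virus-like capsids, PNMA3 carries a zinc knuckle and a programmed ribosomal frameshift of the retroviral kind, and PNMA5 is known from the association areas of the primate cortex.

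Among the members PNMA5 stood apart, and the sequence in front of its annotated starts is shown because the gene passed from near 0 to a high level between the labels. PNMA5 (ENSG00000198883) lies on the minus strand at chrX:152988824-152994116 (GRCh38, GENCODE 44), and PNMA3 (ENSG00000183837) lies on the plus strand at chrX:153056409-153060467, with 62.3 kb between them. RefSeq (GRCh38.p14) places transcript starts of PNMA5 at an upstream position and at 2 downstream positions inside the gene, 4 bases apart. The windows before the upstream start and the first of the downstream starts, chrX:152994117-152994366 and chrX:152992218-152992467, hold 250 bases each. The window of PNMA3 reaches from chrX:153056220 to chrX:153056469, and its first 189 bases are printed, up to the start of the longest transcript in GENCODE. Capitals mark the E-box CACGTG.
PNMA5, upstream start: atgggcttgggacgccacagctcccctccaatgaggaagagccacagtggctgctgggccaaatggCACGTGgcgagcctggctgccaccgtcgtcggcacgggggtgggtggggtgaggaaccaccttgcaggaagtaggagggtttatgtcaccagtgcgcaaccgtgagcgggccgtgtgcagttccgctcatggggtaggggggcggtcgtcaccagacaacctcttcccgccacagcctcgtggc
PNMA5, downstream start: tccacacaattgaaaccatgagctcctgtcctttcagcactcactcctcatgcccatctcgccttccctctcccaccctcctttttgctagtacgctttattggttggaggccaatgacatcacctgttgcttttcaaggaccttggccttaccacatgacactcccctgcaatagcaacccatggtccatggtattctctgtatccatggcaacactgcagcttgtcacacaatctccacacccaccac
PNMA3: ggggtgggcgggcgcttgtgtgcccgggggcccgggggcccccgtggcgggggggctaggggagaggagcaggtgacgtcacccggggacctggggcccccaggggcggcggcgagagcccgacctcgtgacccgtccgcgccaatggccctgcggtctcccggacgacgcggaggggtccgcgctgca

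The letters CACGTG occurred once in the window of the upstream PNMA5 start, 184 bases before it, and not in the other windows of PNMA5 and PNMA3. The AP-1 motif TGANTCA, searched like the E-box on both strands, occurred in none of them. Across the 35116 RefSeq windows of the same length, 6.34% held CACGTG and 6.57% held TGANTCA. The windows differed more in CG dinucleotides, of which the upstream PNMA5 start had 16, the downstream start 2 and PNMA3 35 over the whole window. Of all windows, 59.0%, 14.7% and 94.2% had fewer, and the median was 11. The counts are summed over transcripts, so which start was in use was not resolved.

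PNMA5 was read 4 times in EV replicate 1 and not at all in EV replicates 2 and 3, and 5913, 4280 and 4774 times in HDAC8 replicates 1 to 3. In CPM these were 0.185, 0 and 0 against 200.4, 211 and 205. All 3 HDAC8 libraries lay close together, with a coefficient of variation of 2.56% around a mean of 206 ± 5.27 CPM (SD, n = 3), and no EV library came near them.

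Pooled over libraries, 4 counts in EV stood against 14967 in HDAC8, a ratio of CPM of 3502, with an exact 95% interval from counting alone of 1368 to 12855. This interval leaves out the spread between libraries and is no test, as PNMA5 was chosen on this difference. The 4 counts were all in 1 library, whose level was 0.0902% of the HDAC8 mean. The fitted log2 fold change was 11.65, and this value depends on the prior count given to near-empty libraries. Its standard error of 0.20, taken from the F statistic, is too narrow to be read as its precision. With only 4 counts in EV, leaving out a library gave values from 11.05 to 15.27. In HDAC8, 94.4% of the 16195 tested genes had a lower mean CPM than PNMA5, and 911 had a higher one. In bulk RNA, a transcript present in more of the cells and one made in larger amount per cell cannot be told apart.

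**Figure D1:**
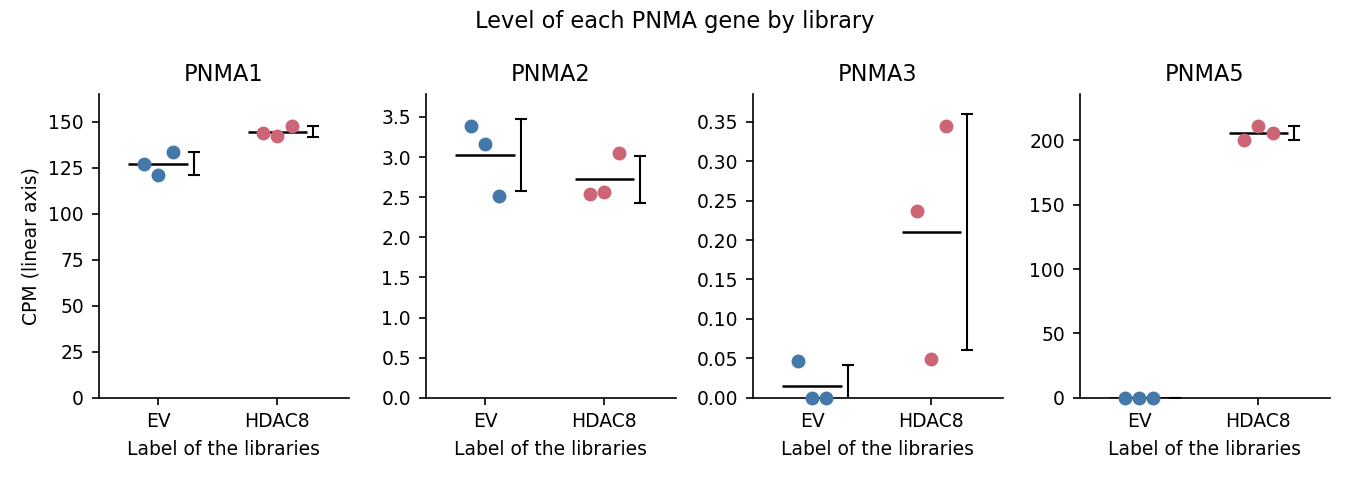
CPM (linear axes, each with its own range) of PNMA1, PNMA2, PNMA3 and PNMA5 in the 3 EV and 3 HDAC8 libraries, with points for libraries, horizontal lines for group means and bars for ± 1 SD drawn to the right (cut off at 0). PNMA5 went from at most 0.185 to at least 200.4 CPM, PNMA1 was at means of 127 and 145 CPM, PNMA2 overlapped, and PNMA3 stayed below 0.35 CPM.

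PNMA3, the neighbour of PNMA5, was at the limit of detection. It had 1, 0 and 0 counts in EV and 7, 1 and 8 counts in HDAC8, or 0.0464, 0 and 0 against 0.237, 0.0493 and 0.344 CPM. The lowest HDAC8 library and the highest EV library thus held 1 count each, and both lay below the 3-count floor. Pooled, 1 count stood against 16, a ratio of 15.0 with an interval from counting of 2.33 to 628, which is likewise no test. PNMA3 did not pass the filter on low counts and had no value in the fit that used it. In the HDAC8 libraries its counts came to 0.107% of those of PNMA5.

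PNMA1 (ENSG00000176903, chr14:73711783-73714384, minus strand) was well expressed under both labels. It had 2745, 2678 and 3281 counts in EV and 4252, 2882 and 3430 in HDAC8, which were 127, 121 and 133 against 144, 142 and 148 CPM. Each HDAC8 library lay above each EV library, by a small margin. The means were 127 ± 6.27 and 145 ± 2.82 CPM (SD, n = 3), and the log2 fold change was 0.19 with a standard error of 0.05, below the size threshold of 0.58 used for a call.

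PNMA2 (ENSG00000240694, chr8:26504701-26514092, minus strand) was low under both labels. The estimated counts were 73, 70 and 61.87 in EV and 75, 51.53 and 70.99 in HDAC8, and the CPM were 3.38, 3.16 and 2.52 against 2.54, 2.56 and 3.06. The groups overlapped, with means of 3.02 ± 0.449 and 2.72 ± 0.291 CPM (SD, n = 3) and a log2 fold change of -0.15 with a standard error of 0.25. The ends of PNMA2 overlap BNIP3L and DPYSL2 on the opposite strand, 6.85% of its distinct 50-base stretches occur in other genes, and whether reads were counted by strand is not given in the sources used here. PNMA1 and PNMA5 shared no 50-base stretch with any other annotated gene, and PNMA3 shared 0.765%, all with PNMA6F.

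Of the 4 members, 3 passed the filter on low counts, PNMA5 through its HDAC8 libraries alone. Of these 3, only PNMA5 was called, which required an adjusted p below 0.05 and a log2 difference of 0.58 or more in either direction, where 7.52% of all 16195 tested genes were called, 4.07% higher and 3.45% lower in HDAC8. Among the same 3, PNMA1 and PNMA5 did not overlap between the labels, as was true of 38.0% of all tested genes. The members were chosen from this contrast, so nothing is read from these counts. The median log2 fold change of all tested genes was 0.01.

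**Figure D2:**
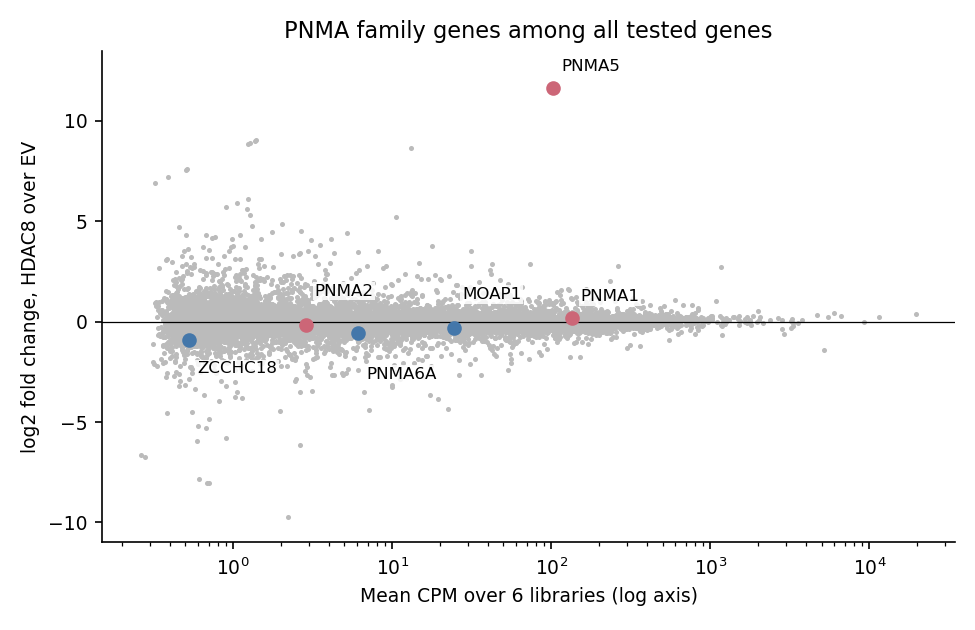
Log2 fold change (HDAC8 over EV, linear axis) against mean CPM over the 6 libraries (log axis) for the 16195 tested genes in grey, with the tested members in red and the other tested PNMA family genes in blue. PNMA5 stands at 11.65, while PNMA1 and PNMA2 lie within 0.20 of 0.

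Per kilobase of annotated exon the order of the levels changed at its top. In EV the level of PNMA1 was 48.9 CPM per kilobase and that of PNMA2 was 0.543, followed by PNMA5 at 0.0180 and PNMA3 at 0.00412. PNMA5 and PNMA3 did not differ in EV beyond their spread, both being at 0 in 2 libraries. In HDAC8 PNMA5 reached 60.0 and PNMA1 55.6 CPM per kilobase, with PNMA2 at 0.489 and PNMA3 at 0.0561. The level of PNMA5 per kilobase was 1.08 times that of PNMA1, with libraries at 58.5, 61.5 and 59.9 against 55.4, 54.6 and 56.7, so that these 2 levels did not overlap. Per kilobase of coding sequence the same counts gave 153 against 137. Both comparisons depend on the annotated lengths, with 3428 bases of exon for PNMA5 and 2602 for PNMA1. As the PNMA5 start in use was not resolved, the size of the gap between these 2 genes is not settled. A PNMA5 transcript shorter than the union of its exons would raise its level per kilobase. PNMA5 made up 58.2% of the summed CPM of the members in HDAC8.

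The 11 other genes of the PNMA family, a list set by name, held no second gene with a difference of the size seen in PNMA5. Of these, 4 (PNMA6B, PNMA6E, PNMA6F and PNMA8C) had no count in any library and 3 were tested. None of the 3 was called by edgeR or by DESeq2, beside 7.52% of all tested genes called by edgeR. With 3 genes, nothing is read from the lack of calls. By edgeR 2 had an unadjusted p below 0.05. All 3 fold changes were negative, with a median log2 fold change of -0.55 beside 0.01 for all tested genes.

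MOAP1, a partner of the apoptosis effector BAX, was the most abundant of them. Its counts were 599, 625 and 614 in EV and 661, 443 and 481 in HDAC8. These were 27.0 ± 1.76 against 21.6 ± 0.867 CPM (SD, n = 3), with no overlap, as in 38.0% of all tested genes. The log2 fold change of -0.32 (standard error 0.08) had an adjusted p of 0.0157 by edgeR and fell short of the size threshold. Without EV replicate 1 its adjusted p was 0.0698, and without EV replicate 2 it was 0.0635.

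PNMA6A, which lies 12 kb beyond PNMA3 on the same strand, had 158, 152 and 188 counts in EV and 140, 127 and 91 in HDAC8. Its CPM of 7.33, 6.86 and 7.64 all lay above those in HDAC8, of 4.75, 6.26 and 3.92. The log2 fold change of -0.55 (standard error 0.19) had an adjusted p of 0.0586 by edgeR and 0.0464 by DESeq2. Without HDAC8 replicate 2 PNMA6A was called lower, with a log2 fold change of -0.75 and an adjusted p of 0.0198 by edgeR. PNMA6A shares 50.3% of its 50-base stretches with the pseudogene PNMA6B, so its count is uncertain. Its estimated difference thus had the opposite sign to those of PNMA5 and PNMA3 in the same stretch of the chromosome.

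The remaining family members were near the floor. ZCCHC18 had 19, 7 and 22 counts in EV and 18, 4 and 6 in HDAC8, and its log2 fold change was -0.92 with a standard error of 0.60 and an adjusted p of 0.317 by edgeR. ZCCHC12, described as a co-activator in BMP signalling, had 3, 1 and 2 counts in EV and none in HDAC8. CCDC8, a subunit of the 3M complex, had 3, 10 and 1 counts against 8, 1 and 16. PNMA8A was read only in EV replicate 2, with 6 counts, and PNMA8B had 2 counts in that library and 4.73 in HDAC8 replicate 1. None of these last 4 genes passed the filter on low counts.

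Human cells keep further genes descended from gag, among them the RTL genes, PEG10 and ARC, and 15 such genes outside the PNMA family were listed. Of these, 4 had no count and 8 were tested, with 1 called higher, none lower and a median log2 fold change of 0.05. The 1 call among 8 genes is 12.5%, beside 7.52% of all tested genes called and 4.07% called higher. For the lower direction, DESeq2 also called 0, and 2 genes had an unadjusted p below 0.05.

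The gene called higher was PEG10, an imprinted gene needed for the placenta whose transcript, like that of PNMA3, is read with a frameshift. PEG10 had 1736, 1744 and 2067 counts in EV and 4136, 2720 and 2811 in HDAC8. The CPM of 80.5, 78.7 and 84.0 lay well below those of 140.2, 134 and 121 in HDAC8. The log2 fold change of PEG10 was 0.70 with a standard error of 0.06 and an adjusted p of 7.65e-06 by edgeR, and the call held under each alternative that kept the size threshold of 0.58. PEG10 lay below a threshold of 1.

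RTL6 was at 91.2 ± 4.82 and 67.3 ± 0.50 CPM (SD, n = 3). Its log2 fold change of -0.44 (standard error 0.06) had an adjusted p of 0.000176 by edgeR and did not reach the size threshold. RTL10 was at 63.8 ± 1.47 and 64.6 ± 4.41 CPM (SD, n = 3), with a log2 fold change of 0.02 and an adjusted p of 0.898 by edgeR. ARC, the neuronal gene whose protein also forms capsids, was picked out after its values were seen. Its counts of 18, 28 and 25 lay above those of 10, 11 and 14 in HDAC8, for a log2 fold change of -1.08 with a standard error of 0.44 and an adjusted p of 0.109 by edgeR.

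**Figure D3:**
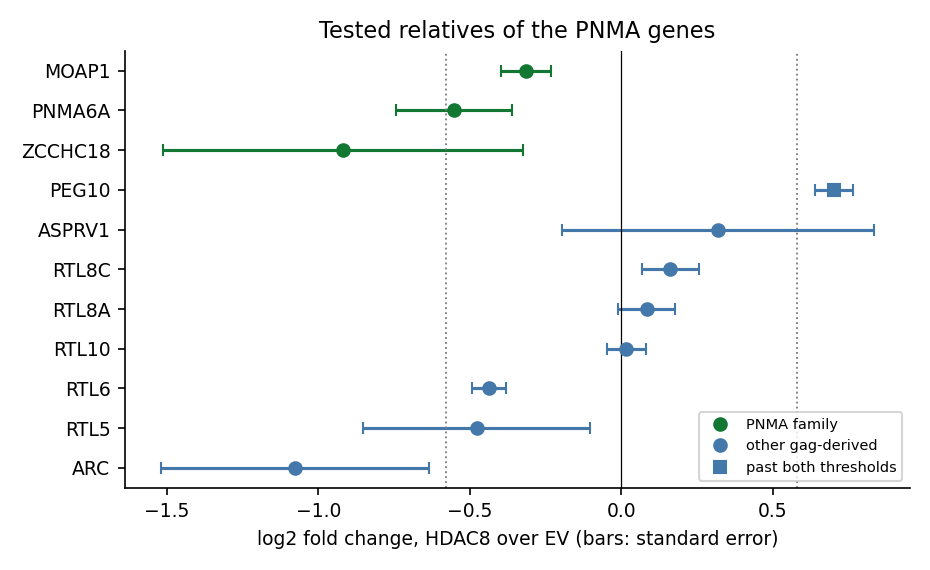
Log2 fold change (HDAC8 over EV) with its standard error for the 3 tested PNMA family genes that are not members (green) and the 8 tested gag-derived genes outside the family (blue), with dotted lines at the size threshold of 0.58 in either direction. PEG10, drawn as a square at 0.70, is the one gene past both thresholds, and the 3 family genes lie between -0.92 and -0.32.

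The genes around PNMA5 and PNMA3 were examined to see how far the difference extended along the chromosome. Of 76 other genes of the table whose lowest coordinate lies within 1 Mb of that of either, 44 were tested. Among the 44, 4 (9.09%) were called higher and 0 lower. Over all tested genes, 4.07% were called higher and 3.45% lower, or 7.52% in either direction. For the lower direction, DESeq2 also called 0 and 8 genes had an unadjusted p below 0.05. The median log2 fold change was -0.0031 in this window and 0.09 over the 525 tested genes of chromosome X. On that chromosome 38 genes were called higher and 12 lower, or 9.52% in either direction. The nearest tested gene, ZNF185, encoding a LIM-domain protein, ends 15.3 kb from PNMA5. It had 44, 31 and 49 counts in EV and 59, 37 and 35 in HDAC8, and its log2 fold change was -0.02 with a standard error of 0.31 and an adjusted p of 0.969 by edgeR. Both tested neighbours of the PNMA5 and PNMA3 pair, ZNF185 and PNMA6A, thus lacked a rise like that of PNMA5.

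The 4 genes called higher lay at least 190.5 kb from PNMA5, counted between lowest coordinates. BGN, encoding the matrix proteoglycan biglycan, had 1, 3 and 4 counts in EV and 37, 14 and 17 in HDAC8 (log2 fold change 2.90, standard error 0.60, adjusted p = 0.00448 by edgeR). Like PNMA5, BGN passed the filter on low counts through its HDAC8 libraries alone, so nothing is read from its call. It had no value when at least 10 counts were required in every library. MAGEA1, a cancer-testis antigen with relatives nearby, was at 63.9 ± 4.61 and 97.7 ± 1.63 CPM (SD, n = 3), with a log2 fold change of 0.61 and an adjusted p of 2.21e-05 by edgeR. DUSP9, a phosphatase of MAP kinases, and GABRQ, a GABA receptor subunit, had log2 fold changes of 0.86 (adjusted p = 0.0210 by edgeR) and 0.92 (adjusted p = 0.0462 by edgeR). Leaving out EV replicate 2 or 3, or HDAC8 replicate 2 or 3, left 2 of the 4 calls, and GABRQ lost its call in 5 of the 6 fits that left out a library.

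**Figure D4:**
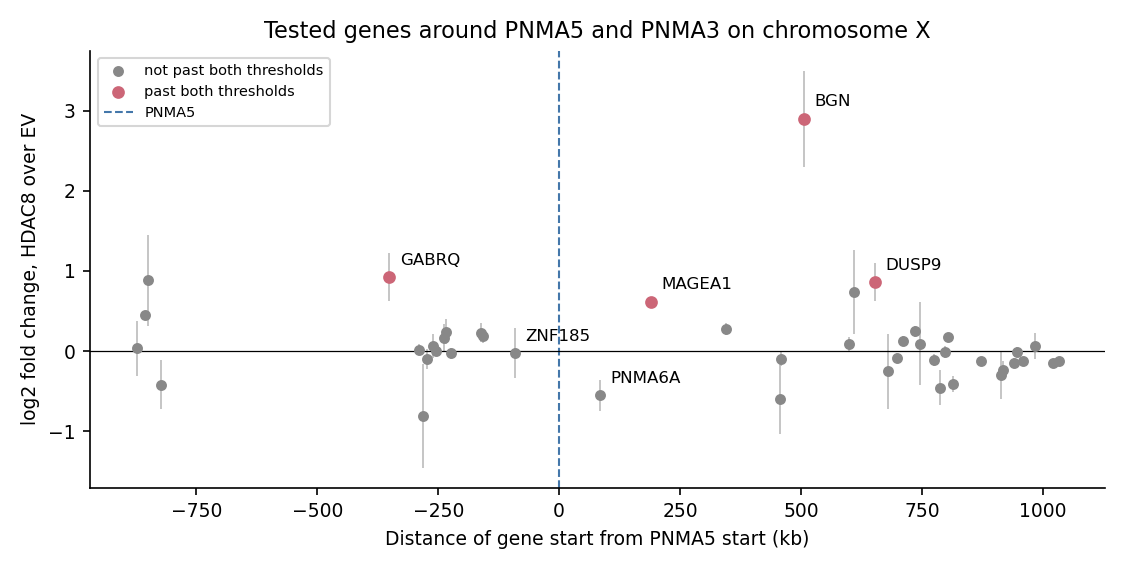
Log2 fold change (HDAC8 over EV, bars for the standard error) of the 44 tested genes around PNMA5 and PNMA3, against the distance in kb of each gene's lowest coordinate from that of PNMA5. The genes past both thresholds are red, and ZNF185 and PNMA6A, the tested neighbours, lie at -0.02 and -0.55.

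Around the autosomal members no gene was called, beside 7.52% of all tested genes. With so few tested genes, nothing about these stretches is read from the lack of calls. Within 1 Mb of PNMA1, 28 of 73 genes were tested and edgeR and DESeq2 each called 0, with 8 at an unadjusted p below 0.05 and a median log2 fold change of 0.02. The closest, ELMSAN1, a scaffold of a mitotic deacetylase complex, lies 0.738 kb from PNMA1, with its 3′ end the nearer, and had a log2 fold change of -0.04 (adjusted p = 0.563 by edgeR). On the other side DNAL1, encoding a dynein light chain, had -0.06 (adjusted p = 0.545 by edgeR). Within 1 Mb of PNMA2, 7 of 29 genes were tested and both tools called 0, with 1 at an unadjusted p below 0.05. The mitophagy receptor gene BNIP3L had a log2 fold change of -0.10 (adjusted p = 0.324 by edgeR) and DPYSL2, which takes part in axon growth, one of -0.21 (adjusted p = 0.0596 by edgeR).

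The profile of PNMA5 over the 6 libraries was compared with that of each tested gene, as the root mean square distance between log2 (CPM + 0.5) values centred on each gene's own mean. On this scale the mean of PNMA5 differed by 8.54 between the labels, and those of the 5 nearest genes by 3.40 to 5.57. Over 2 groups of 3 the distance thus mostly follows the size of the difference between the labels. PNMA5 was chosen on that difference, so the list is a description, and shared regulation was not tested. The nearest gene was SSX1, a cancer-testis antigen also on the X chromosome, at a distance of 1.51, with 0, 3 and 1 counts in EV and 829, 596 and 487 in HDAC8. BCHE, encoding butyrylcholinesterase, followed at 2.12, with 7, 10 and 21 counts against 585, 376 and 545. VCAN, encoding the proteoglycan versican (2.51), the septin gene SEPT4 (2.57) and NFATC4, a calcium-regulated transcription factor (2.58), came next, with EV means of 2.48, 5.0 and 0.457 CPM and HDAC8 means of 33.2, 57.4 and 9.92 CPM. With Pearson correlation in place of distance, none of these 5 was among the 5 nearest, and 196 genes had a coefficient of at least 0.99, since over 2 groups of 3 a correlation takes no account of size.

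PNMA genes are best known from neurons and testis, so markers of these and of other cell types were read in the same libraries. The 6 neuronal markers summed to 4.2 to 5.29 CPM in EV and 6.90 to 8.20 in HDAC8. Of these, SYT1, the calcium sensor of synaptic vesicles, had 14, 11 and 6 counts in EV and 167, 82 and 105 in HDAC8 (log2 fold change 3.36, standard error 0.36, adjusted p = 3.57e-05 by edgeR). SYT1 was near the floor in EV and had no value when at least 10 counts were required in every library. SYP, a synaptic vesicle protein and the most abundant of these markers in EV, had 55, 50 and 54 counts in EV and 42, 27 and 43 in HDAC8 (log2 fold change -0.60, standard error 0.29, adjusted p = 0.177 by edgeR). The neurofilament gene NEFL had a log2 fold change of 0.08 and an adjusted p of 0.926 by edgeR, so the higher sum in HDAC8 came from SYT1. The neuronal markers STMN2 and RBFOX3 had at most 4 and 12 counts in any library, and SNAP25 had 24, 6 and 14 counts in EV and 6, 1 and 2 in HDAC8. The 5 germ cell markers summed to 1.02 to 1.58 CPM in EV and 0.560 to 0.915 in HDAC8, with DDX4, TEX101 and PRM1 at 0 in every library. PNMA5 alone was at least 200.4 CPM in each HDAC8 library. The epithelial markers summed to 70.4 to 80.0 against 79.3 to 95 CPM, nearly all of it KRT18, with EPCAM at no more than 1 count, and the leukocyte markers to 28.6 to 29.5 against 25 to 33.6 CPM, mostly CD68, with CD3E at 0. The 7 melanocyte lineage markers summed to 6367 to 6753 CPM in EV and 7400 to 7925 in HDAC8, with TYRP1 called higher and DCT lower. Most of this sum was PMEL, at means of 4144 and 5246 CPM. The means of TYR, SOX10 and TYRP1 were also higher in HDAC8, and those of MLANA, MITF and DCT were lower. The part of these shifts in the level of PNMA5 was not tested.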

How the data were processed

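Transcript levels were measured by RNA-seq in 3 EV and 3 HDAC8 libraries of SK-MEL-28, grouped by their titles. The values used are the estimated counts that the authors deposited for each Ensembl gene, not normalized. The Methods describe trimming with Trimmomatic, alignment with STAR and quantification with RSEM, and the submitters' processing notes name GRCh38. The labels and the Methods name different RNA and library kits. Each library held 5351 to 5685 fractional values among 60504 genes, as RSEM splits reads with several matches, and values were rounded before testing. A second deposited table, of log2 fold changes and p-values with columns named Ctrl and Test, was not used.

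Genes were filtered with filterByExpr, scaled by TMM and tested with the quasi-likelihood test of edgeR 4.0.16 (R 4.3.3) on all 6 libraries, with Benjamini-Hochberg adjustment over 16195 genes. A call required an adjusted p below 0.05 and a log2 difference of 0.58 or more in either direction. Standard errors were obtained from the F statistic, as the size of the log2 fold change over its square root. For PNMA5, near 0 in EV, this value is not read as a precision. Pooled ratios have exact 95% binomial intervals that cover counting error only and are no test of a difference between the labels. The fit was tested on simulated counts. Levels per kilobase used the union of exons in GENCODE 44, matched by Ensembl ID.

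Members and lists were chosen with earlier results of these data known. Named were the members, the other family genes, gag-derived genes that were called or among the 3 most abundant, the nearest tested genes on either side, called genes within 1 Mb, the 5 genes most like PNMA5, and HDAC8. ARC, SYT1 and the other markers are named besides. Alternatives were DESeq2 1.42.0, upper-quartile scaling, no filter, at least 10 counts in every library, a replicate block, each library left out, a prior count of 2, a fold threshold of 1 and Pearson correlation. A planned comparison of the protein sequences was not made.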

Additional observations from a re-analysis of the deposited data

How the results depend on the processing

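Relative to the counts of 659 genes higher and 559 lower, a log2 fold change of at least 1 left 391 and 309, and leaving out each library gave 560 to 661 and 456 to 606. PNMA1 kept its direction in all 11 alternatives (0.15 to 0.22), as did PNMA2 (-0.27 to -0.06). The log2 fold change of PNMA5 was 10.49 with a prior count of 2 and 11.05 to 15.27 with a library left out. The highest of these, without EV replicate 1, has EV at 0 throughout and is no bound. With at least 10 counts in every library PNMA5 had no value. The log2 ratio of PNMA3, 3.90 from pooled counts, was 3.42 with no filter and 3.26 to 4.28 with a library left out, and had no value without EV replicate 1, in which EV is at 0. Leaving out a library gave 0 to 1 other PNMA family genes called lower, the 1 being PNMA6A without HDAC8 replicate 2, and around PNMA5 and PNMA3 it gave 2 to 3 called higher and 0 to 1 lower. With at least 10 counts in every library 1 gag-derived gene, ARC, was called lower (adjusted p = 0.0467 by edgeR). The 5 genes most like PNMA5 shared 0 with those by Pearson correlation. The cause of these shifts was not tested, beyond the EV libraries at 0.

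Same-numbered libraries of the groups showed no shared deviation, with correlations of -0.05, -0.12 and -0.08, so the numbers are not read as pairs. With the replicate number as a block, 601 genes were higher and 497 lower, PNMA1, PNMA2 and PNMA5 had log2 fold changes of 0.19, -0.15 and 11.65, and around PNMA5 and PNMA3 2 genes were called higher in place of 4, DUSP9 and GABRQ having adjusted p of 0.0508 and 0.0581 by edgeR.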

Other observations

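NYNRIN, a gag-derived gene that did not pass the filter on low counts, had 41 counts in HDAC8 replicate 1 and between 0 and 9 in the other 5 libraries. It was picked out after its values were seen.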
